A study of Xenopus tropicalis with 11 samples.

Results

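Summits of the corepressor TLE were placed against intervals of the histone mark H3K27ac, both mapped by ChIP-seq in whole early gastrulae (stage 10.5) of Xenopus tropicalis, Nigerian A strain. The members were all lines of the TLE peak list and all intervals of the H3K27ac list on sequences whose names start with Chr. These were 166085 of 188829 TLE summits and 73687 of 91764 H3K27ac intervals, out of 939072 lines in the 7 peak lists of the series. A summit is the base of highest signal within a called peak, and a TLE interval with several summits fills a line for each of them. The embryos carried no treatment or genotype named in the labels, and 2000 to 3000 of them were fixed for a chromatin preparation. Each antibody has 1 library, which leaves replicate error unknown and allows no test between conditions. All intervals in the text are 95% intervals that cover counting error only. TLE and p300 share an input library, and H3K27ac shares another with H3K4me1.

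TLE proteins, the vertebrate relatives of Drosophila Groucho, do not bind DNA by themselves. DNA-binding repressors such as Gsc and Tcf factors recruit them, and they in turn recruit histone deacetylases, which remove acetyl groups from histone tails. H3K27ac is placed by p300 and its relative CBP on nucleosomes of active enhancers and promoters. A whole embryo holds cells in which a site is active beside cells in which it is silent, so TLE and acetylation that share a position can stem from different cells.

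The H3K27ac intervals covered 27.04 Mb, or 2.13% of the 1272 Mb between the first and the last peak on the 10 chromosomes. Their median width was 276 bp and their range 152 to 3293 bp. Many were close neighbours: 15730 of 73677 gaps between adjacent intervals, 21.3%, were shorter than 1000 bp, and the smallest gap was 145 bp. The TLE lines formed 137474 distinct intervals with a median width of 170 bp. Their median fold enrichment, the signal of a peak over its local background as the authors' peak caller gave it, was 6.04.

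Most TLE summits lay outside acetylated intervals, but many lay close to one. Of the 166085 summits, 15795 were inside an H3K27ac interval, which is 9.51% (9.37 to 9.65) of summits on 2.13% of the sequence. The density of TLE summits was 4.84 times (4.76 to 4.92) higher inside these intervals than on the rest of the chromosomes. Among p300 summits the share inside was 17.2% (17.0 to 17.4) and the density ratio 9.57. The share was lower for TLE than for p300 on 10 of 10 chromosomes, with a range of 8.52 to 14.7% for TLE and 15.3 to 23.4% for p300. These chromosomes come from the same 1 library per antibody and are not replicates. The lists are unlike, with a median −log10 q of 10.2 for TLE and 6.50 for p300. A difference of antibody or peak calling cannot be told apart from one between the proteins. The TLE value depended on the H3K27ac threshold and on the overlap rule: it was 2.08% against the 3755 intervals with a −log10 q of at least 10, where the density ratio was 8.71, and 16.9% when any overlap of a TLE interval counted.

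Distances of the other TLE summits were short compared with the spacing of the sequence. Within 250 bp of an H3K27ac interval, inside included, lay 24.1% of TLE summits and 4.83% of the sequence. Within 1000 bp these shares were 37.1 and 11.6%, within 5000 bp 62.0 and 39.1%, and within 50000 bp 98.1 and 95.3%. The median distance of the 150290 outside summits was 3485 bp, against 7671 bp for the outside sequence itself. The remaining 3145 TLE summits, 1.89%, lay over 50000 bp from any H3K27ac interval, and the farthest at 225745 bp.

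The density of TLE summits did not fall steadily across the end of an acetylated interval. It was 0.490 summits per kb in the outermost 25 bp inside, 0.393 at a depth of 50 to 99 bp, and 1.01 at a depth of 250 to 499 bp. Just outside it was 0.538 per kb at 1 to 25 bp, 0.847 at 51 to 100 bp, 0.567 in the last 50 bp up to 250 bp and 0.192 between 500 and 1000 bp. TLE summits were thus denser in a strip of sequence next to the acetylated interval than in the strip just within its end. Over 250 bp on either side, 24165 TLE summits outside gave 0.701 per kb and 11206 inside gave 0.494 per kb, a ratio of 1.42 (1.39 to 1.45). The inside strip takes in the whole of any interval of 500 bp or less, and the median width was 276 bp. The ratio therefore sets the flank against most of the acetylated sequence, not against the ends alone. The ratio was 0.784 (0.770 to 0.798) for p300 and 0.369 (0.351 to 0.388) for Gsc. It was above 1 on 10 of 10 chromosomes for TLE and on 0 of 10 for p300 and for Gsc. Nearer the end p300 was also denser outside, with 0.938 per kb at 51 to 100 bp outside against 0.779 at 50 to 99 bp inside. The p300 ratio below 1 thus belongs to strips of 250 bp, and a rise just outside the end was not particular to TLE. With strips of 500 bp the TLE ratio turned to 0.965 (0.946 to 0.984). The added stretches held 0.364 per kb outside and 1.01 per kb inside. The added inside sequence, 3551 kb, came only from intervals wider than 500 bp. The added outside sequence, 29996 kb, lay around intervals of all widths, so the change of strip is not a like comparison. For TLE lines with a −log10 q of at least 10 the ratio was 2.23 with strips of 250 bp.

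**Figure D1:**
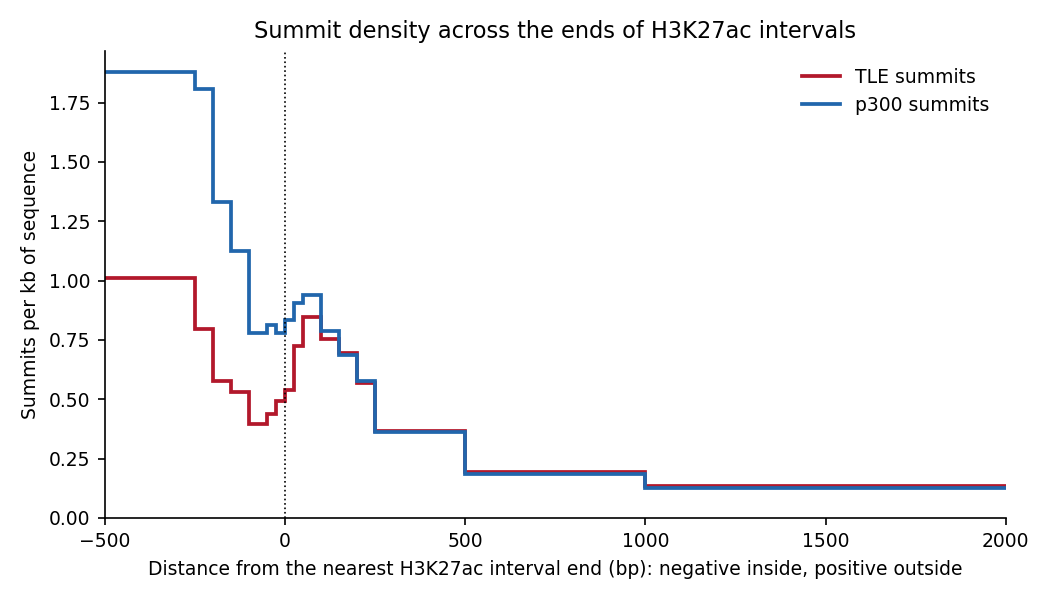
Summits of TLE and p300 per kb of sequence (y axis) against distance in bp from the nearest end of an H3K27ac interval (x axis, negative inside, positive outside), each step being 1 distance bin. The TLE line dips to 0.393 per kb just inside the end and peaks at 0.847 per kb 51 to 100 bp outside, while p300 stays above TLE throughout the inside and the lines meet beyond about 150 bp outside.

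The deep bins belong to wide intervals alone, so the profile was also taken by width. Around the widest decile of H3K27ac intervals, TLE density was 0.694 per kb in the outermost 50 bp inside, 0.597 at 50 to 99 bp and 1.11 from 250 bp inwards. Outside the same intervals it was 1.15 per kb at 1 to 50 bp, 1.28 at 51 to 100 bp and 0.300 between 250 and 500 bp. For p300 around these intervals the highest value was in the interior, 2.01 per kb from 250 bp inwards, against 1.56 at 1 to 50 bp and 1.44 at 51 to 100 bp outside. Near the end p300 also dipped inside, to 1.35 per kb in the outermost 50 bp and 1.26 at 50 to 99 bp. Around width deciles 6 to 9 p300 density was 0.863 per kb at 50 to 99 bp inside and 1.21 at 51 to 100 bp outside, against 0.433 and 1.07 for TLE. A dip inside and a rise outside the end were thus seen for both libraries around these intervals. Around the narrowest 5 deciles of intervals TLE density was 0.355 per kb in the outermost 50 bp inside and 0.586 at 51 to 100 bp outside. The rise outside the end was therefore present around narrow as well as wide intervals.

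Short gaps between neighbouring acetylated intervals were the densest sequence class for TLE. Gaps of 145 to 199 bp held 2.27 TLE summits per kb, 17.4 times the mean of the chromosomes, and gaps of 200 to 299 bp held 2.22. The density was 1.796 per kb in gaps of 300 to 499 bp, 1.06 in gaps of 500 to 999 bp and 0.0903 in gaps of 20000 bp or more. At least 1 TLE summit lay in 1091 of 2989 gaps under 200 bp, 36.5%, and in 2220 of 4189 gaps of 300 to 499 bp, 53.0%. Within gaps of 300 to 499 bp, 66.6% (64.8 to 68.3) of TLE summits lay in the central 50% of the gap, where even placement would put 50%. The p300 summits had similar densities there, 2.51 per kb in gaps of 145 to 199 bp, and a central share of 59.3% (57.6 to 61.0) in gaps of 300 to 499 bp.

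Strong TLE summits lay inside an acetylated interval less often than weak ones, and the strongest lay just beside one most often. Summits were ranked by fold enrichment into 10 equal groups, or deciles, from a median fold of 3.17 in the lowest to 16.2 in the highest. The share inside was 15.3% (14.8 to 15.9) in the lowest group, 9.24% in group 5 and 5.35% (5.02 to 5.71) in the highest. The share 1 to 250 bp outside was 12.7% in the lowest group, 9.89% in group 2, 12.3% in group 5, 14.9% in group 6 and 21.2% in the highest, so it exceeded that of the lowest group from group 6 on. The share in gaps under 1000 bp was 4.29% in the lowest group, 2.88% in group 2, 4.19% in group 5 and 10.8% in the highest. The density ratio across the interval ends was 0.735 (0.691 to 0.782) in the lowest group, 1.25 in group 5 and 3.55 (3.26 to 3.86) in the highest. On 10 of 10 chromosomes the highest group had the lower share inside and the higher share just outside.

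The p300 summits differed in that the share inside was 22.5% in the lowest group of p300 fold, 16.1% in group 5 and 19.6% in the highest, while the share just outside was 12.3, 11.4 and 22.3%. The p300 ratio across the interval ends was also higher in the strong groups, at 0.491 in the lowest, 0.595 in group 5, 1.10 in group 8, 1.47 in group 9 and 1.32 in the highest, so a higher ratio at strong summits was not particular to TLE. For TLE the difference in the share inside between the highest and the lowest group, -9.98 percentage points (-10.6 to -9.33), was -6.21 when H3K27ac intervals under 500 bp apart were joined, -5.47 when TLE summits were ranked by −log10 q, and -1.86 against H3K27ac intervals with a −log10 q of at least 10. In that last setting the shares were 2.87 and 1.01%, and the ratios across the ends 1.14 and 1.97. Far from acetylated sequence the strongest TLE summits were about as frequent as all TLE summits. Of the highest group 36.5% lay more than 5000 and up to 50000 bp away, against 36.2% of the whole list. In the lowest group this share was 25.3%, and in group 5 it was 41.0%. Between 500 and 5000 bp, short gaps aside, lay 39.3% of the lowest and 25.2% of the highest group.

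**Figure D2:**
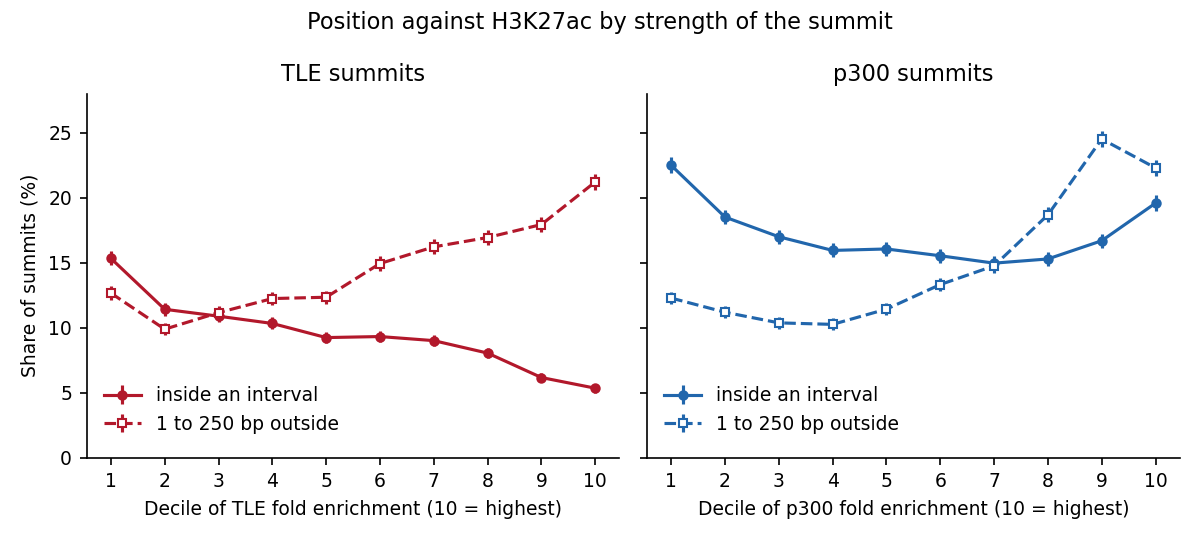
Share of summits (y axis, %) inside an H3K27ac interval (filled circles) or 1 to 250 bp outside one (open squares), by decile of the summit's own fold enrichment (x axis, 10 = highest), for TLE and p300, with exact 95% intervals. For TLE the inside share fell from 15.3 to 5.35% as the share just outside went from 12.7 to 21.2%.

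Inside H3K27ac intervals TLE summits were slightly more central than even placement would give. The central 50% of the interval held 54.6% (53.8 to 55.4) of the 15795 inside summits, and the median distance to the nearer end was 140 bp. The values for p300 were 55.0% (54.5 to 55.6) and 146 bp. The central share depended on the width of the interval. It was 48.5% (46.5 to 50.4) in the narrowest 5 deciles, an interval that includes 50%, 51.2% (49.95 to 52.4) in the next 4 deciles and 60.1% (58.9 to 61.3) in the widest decile. In the widest decile p300 had 56.4% (55.5 to 57.2), and the outermost 10% of the width at each end together held 14.2% of TLE and 14.8% of p300 summits.

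In the same widest decile, the central share of TLE summits went with the strength of both signals. It was 48.3% (45.2 to 51.4) in the quintile of these intervals with the lowest H3K27ac fold and 63.8% (61.4 to 66.2) in the quintile with the highest. By TLE fold it was 54.2% (51.5 to 56.9) in the weakest quintile of summits and 64.0% (61.4 to 66.6) in the strongest. For p300 summits the corresponding shares were 47.5% and 59.0% by H3K27ac fold, and 51.7% and 70.2% by p300 fold. A more central position at stronger signals was thus not particular to TLE. When H3K27ac intervals under 500 bp apart were joined into 1, the central share over all widths was 62.6% (62.0 to 63.3) for TLE and 58.6% (58.1 to 59.1) for p300. Joining counts the summits of those gaps, a dense class, as inside, and 13.2% of TLE summits were then inside. The joined shares therefore include summits outside the called H3K27ac intervals and are not a like comparison.

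**Figure D3:**
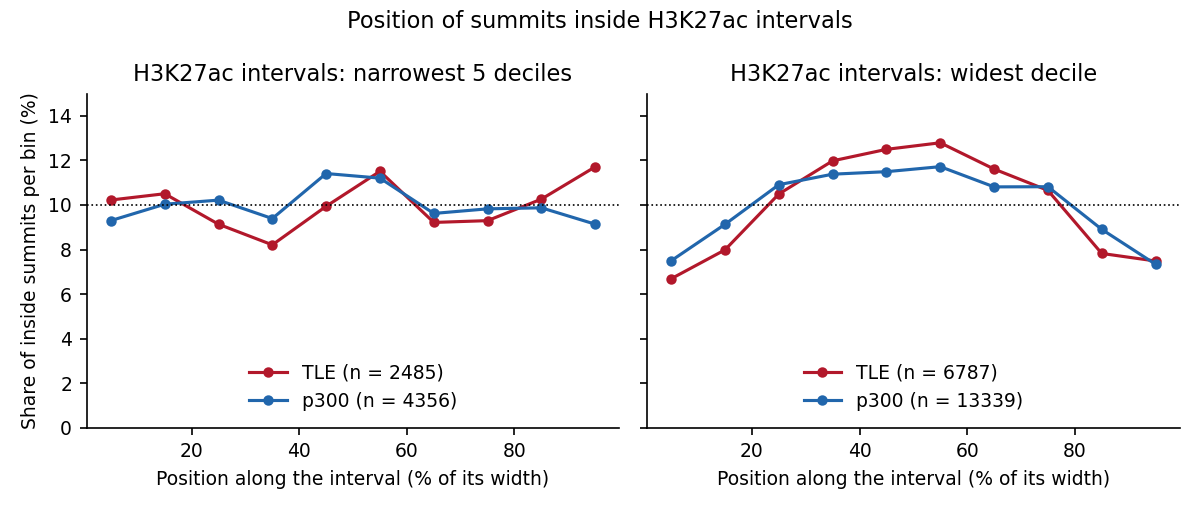
Share of inside summits (y axis, %) in each of 10 equal bins along H3K27ac intervals (x axis, % of the width from the lower to the higher coordinate), for the narrowest 5 deciles of intervals and the widest decile, with even placement (10%) dotted. In the widest decile the TLE share was 6.69% in the first bin and 12.8% in bin 6, while the TLE shares in the narrow intervals show no such central hump.

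Wide acetylated intervals held more TLE summits, also per length. Over all widths, 11710 of 73687 H3K27ac intervals, 15.9%, held at least 1 TLE summit. The share was 4.22% (3.77 to 4.70) in the narrowest decile, 9.12% in decile 5, 19.99% in decile 8 and 54.4% (53.3 to 55.6) in the widest, where widths ran from 704 to 3293 bp. Per kb of interval the density was 0.281, 0.388, 0.542 and 0.918 in these deciles. The widest decile thus had 3.27 times (2.92 to 3.66) the TLE density of the narrowest, and it held 43.0% of all inside TLE summits. The narrowest decile, the base of this ratio, ran from 152 to 154 bp. Of its 7369 intervals, 6617 had the smallest width in the list, 152 bp. For p300 the density ratio was 3.95 (3.62 to 4.32), and 74.4% of the widest intervals held a p300 summit. Among H3K27ac intervals with a −log10 q of at least 10 the TLE ratio was 1.22. There the width deciles were cut anew and can span other widths, so the value is not a like comparison. The highest over the lowest decile of H3K27ac fold gave 2.06, with 0.504 TLE summits per kb in the lowest, 0.378 in decile 5 and 1.04 in the highest.

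Width and strength of the mark are related, with a Spearman rank correlation of 0.231 over the 73687 intervals, so TLE was also counted by fold within a width. In the widest decile, 42.9% of the weakest quintile of intervals by H3K27ac fold held a TLE summit, 38.5%, 54.7% and 70.8% of the next ones in order and 65.2% of the strongest. The p300 shares in the same quintiles were 47.4, 60.4, 82.7, 90.3 and 91.2%. In the narrowest decile the TLE share was 4.82% in the weakest and 4.21% in the strongest quintile. The median H3K27ac folds of the weakest and strongest quintiles were 2.38 and 4.92 in the widest decile, but 2.30 and 3.05 in the narrowest. The higher TLE shares in the widest decile lay in quintiles with a median fold of 3.37 or more, above the median of any quintile of the narrowest. From the weakest to the strongest quintile the TLE shares were 18.2, 14.9, 15.7, 18.9 and 32.3% in width decile 8. In width decile 5 they were 10.7, 7.53, 6.38, 7.53 and 13.4%. In the widest decile and in deciles 8 and 5, TLE occupancy was thus highest in the strongest quintile or the one before it. It did not rise steadily from the weakest. The quintile medians of the narrowest decile, 2.30 to 3.05, allow a like comparison at low fold only. In the first 4 quintiles of decile 8, with medians of 2.19 to 3.06, the TLE shares were 14.9 to 18.9%. In the narrowest decile they were 3.39 to 4.82%. Neither rose steadily over this range of fold, and wider intervals also give more room for a summit. Over the inside summits, TLE fold correlated with H3K27ac fold at a rho of 0.204 (n = 15795), and p300 fold with H3K27ac fold at 0.316 (n = 30957). Here n counts summits, and an interval enters once for each summit it holds. The TLE summits lay in 11710 intervals and the p300 summits in 18983, so the points are not independent and the 2 values weight intervals differently.

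**Figure D4:**
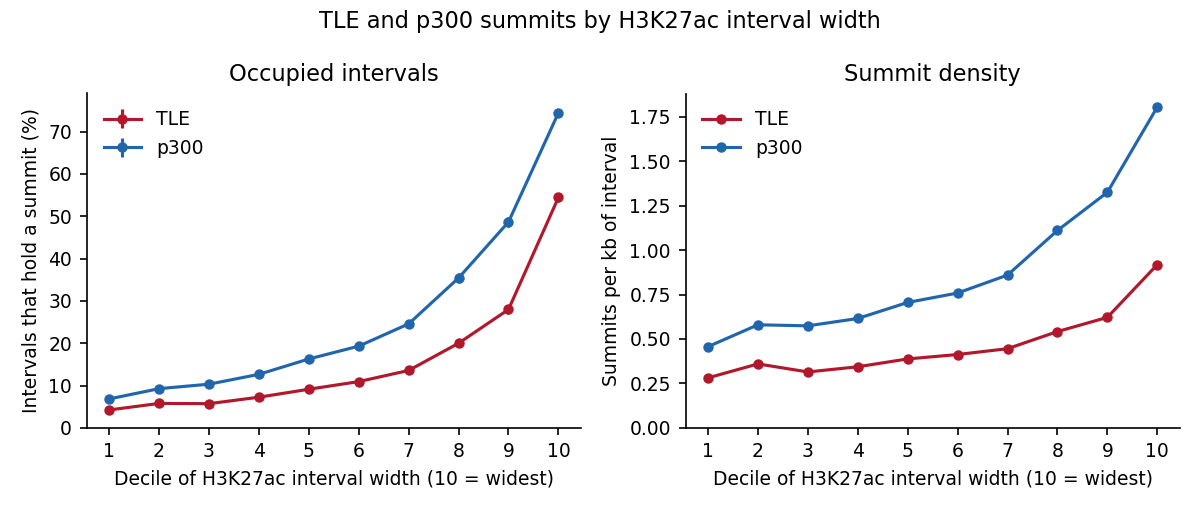
Share of H3K27ac intervals that hold a summit (left, %, with exact 95% intervals, mostly smaller than the symbols) and summits per kb of interval (right), by decile of interval width (x axis, 10 = widest), for TLE and p300. TLE occupied 4.22% of the narrowest and 54.4% of the widest intervals, and p300 lay above TLE in every decile.

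Acetylated intervals that held TLE mostly held p300 as well. A TLE summit lay in 46.4% of the 18983 intervals with a p300 summit and in 5.32% of the 54704 without one. Within the widest decile these shares were 67.6 and 16.1%, and within the narrowest 29.4 and 2.37%. The 2910 intervals with TLE but no p300 summit had a median H3K27ac fold of 2.60, close to the 2.62 of the 51794 intervals with neither, against 3.26 for the 8800 with both and 3.01 for the 10183 with p300 alone. In the widest decile the medians were 2.62 with TLE alone, 2.80 with neither, 3.39 with p300 alone and 3.78 with both.

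The other libraries differed between these classes of interval, but so did width, which gives more room to meet a peak. The median widths were 618 bp with TLE and p300, 397 with p300 alone, 321 with TLE alone and 239 with neither. Otx2, a homeodomain activator of the head organizer, met 92.4% of H3K27ac intervals with TLE and p300, 63.3% with p300 alone, 52.6% with TLE alone and 16.5% with neither. Lim1, its partner in head organizer genes, met 55.8, 47.7, 14.3 and 11.1%, and Gsc, an organizer repressor, met 22.4, 11.3, 4.50 and 1.12%. H3K4me1, a mark of enhancers, met 90.4, 73.9, 68.5 and 41.3%. In width decile 8, where the median widths of the classes were 436 to 444 bp, the Otx2 shares were 90.5, 67.9, 56.7 and 26.6% in the same order. In the widest decile the Lim1 shares were 65.7% with both, 68.0% with p300 alone, 21.4% with TLE alone and 35.4% with neither. There Lim1 met a smaller share of the 304 intervals with TLE alone than of those with neither. Otx2 did not, at 64.5% with TLE alone and 45.5% with neither. The lower Lim1 share with TLE alone was not seen in the other width deciles counted. With TLE alone and with neither, Lim1 met 17.2 and 17.1% in decile 8, and 5.52 and 5.58% in the narrowest.

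A further 15929 H3K27ac intervals, 21.6% (21.3 to 21.9), held no TLE summit but were the nearest interval to one within 250 bp outside their ends. They were narrower than the 11710 intervals with a summit inside, with a median width of 305 against 521 bp, and had a median H3K27ac fold of 2.67 against 2.99. In all, 46048 intervals, 62.5%, had no TLE summit inside and were not the nearest interval to one within 250 bp. A summit in a short gap was counted for its nearer interval only, so some of these can still have one within 250 bp.

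The other libraries at TLE summits followed the distance from acetylated sequence. A p300 peak covered 74.6% (73.9 to 75.3) of TLE summits inside H3K27ac intervals, 84.9% (84.1 to 85.6) of the 9780 in gaps under 1000 bp, and 64.8% of the 25302 others within 500 bp. It covered 39.9% of those between 500 and 5000 bp, 33.3% between 5000 and 50000 bp and 26.1% (24.6 to 27.7) beyond. TLE summits in the short gaps were also the strongest of these groups, with a median fold of 7.91 against 5.33 inside and 6.08 between 5000 and 50000 bp. With TLE fold held even, by averaging over its 10 groups, the p300 shares were 77.7% inside, 80.5% in the gaps and 33.1% between 5000 and 50000 bp.

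Otx2 covered 74.9% of TLE summits inside, 83.8% in short gaps, 69.1% within 500 bp and 48.5% beyond 50000 bp. The last value was below the 58.8% of all TLE summits that Otx2 covered. Lim1 and Gsc were most frequent inside. Lim1 covered 33.4% (32.7 to 34.2) of TLE summits inside, 25.9% in short gaps and 2.38% beyond 50000 bp, and Gsc 15.7% (15.1 to 16.3), 7.58% and 3.53%. H3K4me1 covered 65.7% (64.9 to 66.4) of TLE summits inside H3K27ac intervals but 35.3% (34.4 to 36.3) in the short gaps and 6.87% beyond 50000 bp. None of these 5 libraries covered 6.35% of TLE summits inside and 45.3% of those beyond 50000 bp. Over all TLE summits the shares covered were 47.0% for p300, 10.3% for Lim1, 5.71% for Gsc and 23.0% for H3K4me1, and 28.4% had none of the 5.

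TLE intervals with several sub-peaks met H3K27ac more often, but they were also wider. Of the 137474 distinct TLE intervals, 23291, or 16.9%, overlapped an H3K27ac interval by at least 1 bp. The share was 15.4% (15.2 to 15.6) of 113550 intervals with 1 summit, 21.8% of 20260 with 2, 35.7% of 2995 with 3, 47.6% of 496 with 4 and 77.0% (65.8 to 86.0) of 74 with 6 or more. Their median widths were 146, 326, 498, 668 and 1282 bp. The difference between intervals with 3 or more sub-peaks and those with 1 was 23.2 percentage points (21.7 to 24.8). It was 6.67 points (4.58 to 8.75) within deciles of TLE width, above 0 on 9 of 10 chromosomes, and turned to -1.90 (-5.57 to 1.77) within 50 strata of width, a setting chosen after the data were seen. Within 5 strata it was 14.5 points, and 23.6 within deciles when a summit had to lie inside. Under that last rule any 1 summit sufficed, so intervals with more sub-peaks had more chances by count alone, and the value is not a like comparison. Against H3K27ac intervals with a −log10 q of at least 10 the differences were 3.03 points (2.29 to 3.87) without and 2.97 within width deciles. For p300 intervals against all H3K27ac intervals they were 56.2 points (55.0 to 57.4) without and 19.0 (16.9 to 21.1) within width deciles.

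Within narrow ranges of width the share differed little or in either direction with the number of sub-peaks. Among TLE intervals of 245 to 297 bp it was 18.3% with 1 summit and 31.0% (15.3 to 50.8) of the 29 with 3 or more. At 297 to 369 bp it was 19.5% (18.6 to 20.5) with 1, 15.8% with 2 and 23.3% (18.8 to 28.2) with 3 or more. Among TLE intervals of 427 to 473 bp, 35.8% (32.4 to 39.2) with 1 summit, 30.7% (28.4 to 33.1) with 2 and 26.5% (22.5 to 30.7) with 3 or more met H3K27ac. Above 551 bp 92 of 184 intervals with 1 summit, 49.4% with 2 and 50.4% with 3 or more did so. The H3K27ac intervals met were no stronger where TLE had more sub-peaks: their median fold was 3.03 for TLE intervals with 1 summit, 2.83 with 2, 2.68 with 3 and 2.61 with 4. They were 2.63 with 5 and 2.93 with 6 or more. For p300 the same values were 2.99 with 1 summit, 3.25 with 2, 3.54 with 3, 3.75 with 4, 3.63 with 5 and 3.39 with 6 or more.

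**Figure D5:**
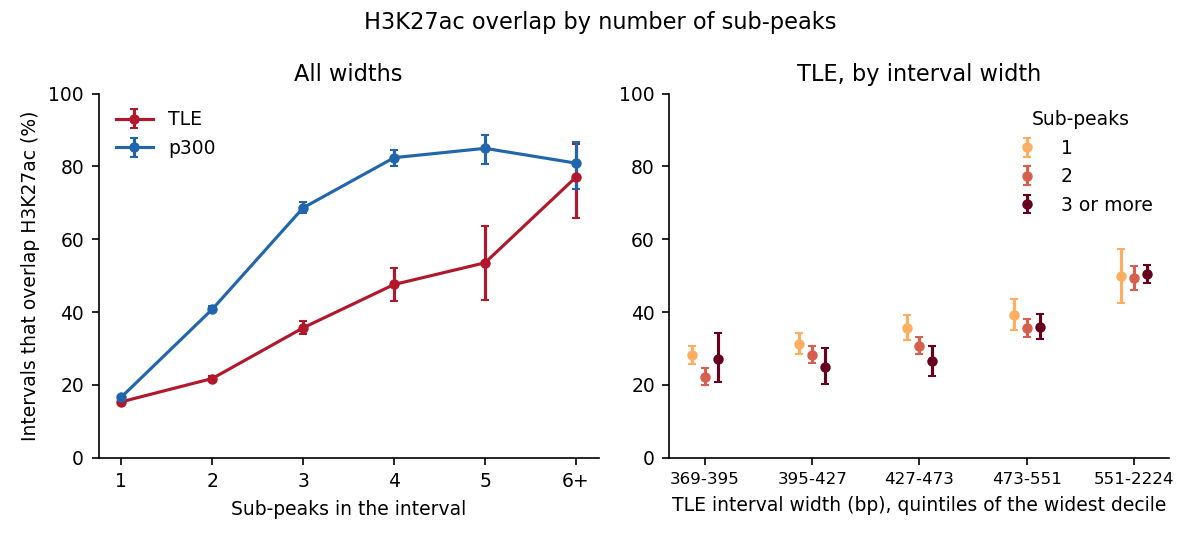
Share of distinct intervals that overlap H3K27ac (y axis, %, exact 95% intervals) by number of sub-peaks for TLE and p300 (left), and for TLE intervals of the widest decile, split into quintiles by width in bp and by number of sub-peaks (right). In the left panel the TLE share climbs with sub-peaks, from 15.4 to 77.0%. The p300 share reaches 85.0% with 5 sub-peaks and is 80.9% with 6 or more. Within each width range of the right panel the TLE shares do not climb steadily with sub-peaks.

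Some neighbouring sub-peaks of TLE lay on different sides of an acetylated end. Their median spacing was 131 bp in intervals with 2 sub-peaks and 143 bp in those with 3 or more. Of the 20260 intervals with 2 sub-peaks, 4.94% had both summits inside H3K27ac and 1365, or 6.74%, had 1 inside and the other outside. Of the 3664 with 3 or more, 223 had all summits inside, 844 (23.0%) some and 2597 none. Among all TLE intervals that overlapped H3K27ac, 40.9% (40.2 to 41.5) had no summit within it.

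Single regions show these arrangements. Coordinates are those of the peak lists, counted from 1, on a build that the sources do not name. The TLE summit of highest fold inside H3K27ac, 40.6, lay at position 89101935 of chromosome 7, near the middle of its acetylated interval, in a TLE interval of 192 bp from 89101846 to 89102037. A p300 summit lay 1 bp away, and the region met Otx2 (fold 19.2), Lim1 (16.6) and Gsc (27.2). The next, of fold 37.2, was at 104153400 of chromosome 1, 10.8% of the way along its interval, with p300, Otx2 and Lim1 but no Gsc peak. The third, of fold 35.5 at 96721961 of chromosome 2, met Otx2 and Gsc but no Lim1.

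The 3 TLE summits of highest fold over 10 kb from acetylated sequence each had Otx2 and p300. Their folds were 34.4 at 42685408 of chromosome 2, 34.3 at 18574784 of chromosome 6 and 32.8 at 4404188 of chromosome 1, at 15075, 11045 and 20986 bp from the nearest H3K27ac interval. The Otx2 peaks had folds of 11.5 to 12.05, and the p300 summits lay within 25 bp, with p300 folds of 4.21, 10.9 and 6.12. The p300 folds at the strongest TLE summits inside H3K27ac were 34.4, 20.8 and 17.7.

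The H3K27ac intervals with most TLE summits were on chromosome 4 at 72497503 to 72500795 with 15, on chromosome 8 at 97911462 to 97913710 with 11 and on chromosome 2 at 8523134 to 8525912 with 10. They were 3293, 2249 and 2779 bp wide and held 13, 9 and 9 p300 summits. Their H3K27ac folds were 2.48, 3.78 and 3.16, against a list median of 2.69. The first was met by all 7 libraries, H3K27ac itself included, with low folds, at most 4.22 for TLE, 3.77 for p300 and 3.81 for Gsc. The widest H3K27ac intervals without a TLE summit were all on chromosome 8, at 112575073 to 112577998, 110013360 to 110016051 and 79065302 to 79067952. They held 4, 0 and 6 p300 summits, and the one without p300 summits was still overlapped by 2 TLE intervals whose summits lay outside it.

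The TLE intervals with most sub-peaks, 15, 15 and 12, were 2224, 1963 and 1808 bp wide. They lay on chromosome 5 at 29440770 to 29442993, chromosome 6 at 53954451 to 53956413 and chromosome 4 at 3340607 to 3342414. The second had 10 of its 15 summits inside an H3K27ac interval, and the others met none.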

How the data were processed

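Peaks had been called by the authors with MACS2, which the submitters' processing notes name beside deepTools without versions. The aligner is not given in the sources used here, nor are the build and the read filters. The deposited lists, per the file layouts, give a fold enrichment (a ratio over local background), −log10 p and q values, and a score of 10 times −log10 q. TLE, p300 and Gsc are in narrow layout with summits, the other lists in broad layout. Read depth is unknown from peak lists.

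The gene table supplied uses another assembly (on 10 of 10 chromosomes its genes extend beyond the peaks by more than 1 Mb), so no region is assigned to a gene and no sequence is shown. Unplaced scaffolds enter 1 alternative only. Summit positions are the interval start plus the deposited offset. Sequence lengths at each distance were computed exactly from the intervals. Shares have exact Clopper-Pearson intervals, ratios of densities log-normal intervals from the counts, differences Newcombe intervals, and the difference within strata a normal interval. Deciles are ranks over the list concerned. Python 3.11.15, numpy 2.4.6, pandas 2.3.3, scipy 1.17.1 and matplotlib 3.10.9 were used. The procedures were tested on simulated data.

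Named regions are the first 3 by each of 5 rules: H3K27ac intervals with most TLE summits, TLE summits of highest fold inside H3K27ac, those over 10 kb away, widest H3K27ac intervals without TLE, and TLE intervals with most sub-peaks. The members, rules and lists were chosen with earlier results of these data known. The comparison by TLE fold, gap classes and location classes were added after the data were seen.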

Additional observations from a re-analysis of the deposited data

How the results depend on the processing

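No paired analysis was possible because no antibody has a second library. In this order, the 7 planned results are the share of TLE summits inside H3K27ac, the density ratio inside to outside, the central share, the ratio across the ends, the ratio of widest to narrowest decile, and the sub-peak difference without and within width deciles. The eighth, the difference in the inside share between the highest and lowest decile of TLE fold, was added after the data were seen, as were its alternatives and the 50 strata of width. Of 49 alternative values 9 stayed within the counting interval of the main value and 2 reversed, and the causes were not tested. With TLE lines of −log10 q of at least 10 (83670 lines), values that moved were 8.16%, 4.09, 2.23 for the ends, 4.06 for the deciles and -8.08 points for the eighth. With H3K27ac at that limit (3755 intervals) the 8 values were 2.08%, 8.71, 60.7%, 1.87, 1.22, 3.03, 2.97 and -1.86. With H3K27ac intervals under 500 bp apart joined (62853 intervals), 13.2%, 6.27, 62.6%, 1.20, 3.93 and -6.21 moved. With unplaced scaffolds, 12.1%, 5.45, 1.20 for the ends, 26.3, 10.4 and -14.0 moved. With 1 summit per TLE interval, 8.94%, 4.52, 57.1%, 1.49 and -8.60 moved.

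By choice of rule, the share inside was 16.9% for any overlap. The central share was 61.3% in the 2835 H3K27ac intervals of at least 1000 bp. The ratio across the ends reversed to 0.965 with strips of 500 bp. The deciles of H3K27ac fold gave 2.06. The sub-peak difference was 20.02 and, within width deciles, 23.6 points when a summit had to lie inside. That rule gives intervals with more sub-peaks more chances by count alone. The sub-peak difference was 21.6 within deciles of TLE fold and 14.5 within 5 strata of width. Within 50 strata it changed sign to -1.90 (-5.57 to 1.77), an interval that includes 0. Ranking by TLE −log10 q gave -5.47. Leaving out each chromosome in turn kept 77 of 80 values within the counting interval and reversed 0, and the share inside ranged from 9.32 to 9.63%. Peaks along a chromosome are not independent, so counting intervals may be too narrow.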

Other observations

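Summits of Gsc, the organizer repressor that recruits TLE, had a different relation to acetylated sequence than TLE summits. The lists are unlike: the median −log10 q was 3.76 for Gsc and 10.2 for TLE, and the median interval width 76 and 170 bp. Gsc also has an input library of its own. With 1 library each, a difference of antibody or peak calling cannot be told apart from one between the proteins. Of the 19256 Gsc summits on the chromosomes, 30.0% (29.3 to 30.6) lay inside H3K27ac intervals, and the share by decile of Gsc fold was 31.5% in the lowest, 26.2% in decile 5 and 48.6% in the highest. The ratio of Gsc density across the interval ends was 0.418 in the lowest and 0.197 in the highest decile, whereas for TLE it was 0.735 and 3.55. In gaps of 145 to 199 bp between H3K27ac intervals Gsc density was 8.37 times its chromosome mean, against 17.4 times for TLE and 17.8 times for p300. The Gsc share inside ranged from 22.5 to 49.6% over the chromosomes.

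Of the 74 TLE intervals with 6 or more sub-peaks, 16 were on chromosome 4 and 4 to 9 on each of the other chromosomes. Chromosome 4 held 18112 of the 166085 TLE summits, and the other chromosomes 5975 to 26433 each. Whether the spread departs from that of all TLE summits was not tested. Of H3K27ac intervals, 6617 had the smallest width in the list, 152 bp.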
